A study of Mus musculus with 8 samples.

Results

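The genes described are 10 members of the ATF4 branch of the integrated stress response, measured in mouse embryonic fibroblasts with and without the transcription factors STAT5A and STAT5B. The members are Chac1, Atf4, Atf5, Ddit3, Trib3, Asns, Psat1, Slc7a11, Vldlr and Ppp1r15a, 10 of the 18193 genes measured. They were read from every probe set that the array annotation assigns to one of them alone, 22 of 34945 such probe sets. Chac1 was chosen by its measured level, which was lower with growth hormone (GH) in control cells, and the others were named as genes of the same pathway. What Chac1 did under GH in control cells is therefore a description, and no test of that contrast is given for any of the 10 genes. The other members, and the lists of further pathway genes below, were chosen with earlier results of these data known. Their tests and counts are thus not independent of those results.

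The groups were Stat5a/b-null cells with GH (KO+GH), null cells without GH (KO-), control cells with GH (WT+GH) and control cells without GH (WT-), with 2 Affymetrix arrays each. All cells were C57BL/6 fibroblasts at passage 13 that had been starved for 5 hours, and the hormone was given at 1 ug/ml for 2 hours. The control cells are labelled wild type. The labels number the arrays 2 and 3 and call them biological replicates. Whether they stem from different embryos or dishes is not stated, and the p-values therefore cover only array-to-array spread, which may be technical. The sources used here do not say how the null alleles were made or how many embryos gave the cells.

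Cells sense amino acid shortage, unfolded protein in the endoplasmic reticulum (ER), haem shortage and viral RNA through kinases that phosphorylate the initiation factor eIF2 on its alpha subunit. General translation then slows while the ATF4 messenger RNA is translated better, so that ATF4 protein is set largely by translation and the transcript of Atf4 is an incomplete measure of it. ATF4 binds composite C/EBP-ATF elements in genes for amino acid synthesis, transport and redox defence. It also raises Ddit3 (CHOP), Trib3 and Chac1, and Ppp1r15a, which encodes GADD34, closes the loop by dephosphorylating eIF2.

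Promoter windows are shown for 4 of the 5 members with the core letters of that composite element, TGATGNAA, on either strand. The Vldlr window with the core is not shown. The windows run from 250 bases before to 50 bases after the annotated start of the gene and come from RefSeq on build GRCm38.p6. The capitals mark the matches.
Chac1 (chr2:119350992-119351291, plus strand): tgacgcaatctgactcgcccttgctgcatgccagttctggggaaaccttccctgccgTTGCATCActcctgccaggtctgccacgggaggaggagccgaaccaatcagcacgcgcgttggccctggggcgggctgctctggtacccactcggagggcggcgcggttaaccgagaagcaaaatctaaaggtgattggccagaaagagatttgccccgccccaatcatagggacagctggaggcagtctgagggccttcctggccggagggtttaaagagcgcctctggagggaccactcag
Trib3 (chr2:152344011-152344310, minus strand): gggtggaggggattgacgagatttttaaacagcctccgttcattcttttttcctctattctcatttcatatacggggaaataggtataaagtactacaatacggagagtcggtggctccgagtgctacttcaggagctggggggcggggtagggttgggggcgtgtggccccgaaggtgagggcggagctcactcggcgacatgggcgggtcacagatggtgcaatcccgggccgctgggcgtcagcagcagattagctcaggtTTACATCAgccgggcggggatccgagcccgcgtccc
Asns (chr6:7693160-7693459, minus strand): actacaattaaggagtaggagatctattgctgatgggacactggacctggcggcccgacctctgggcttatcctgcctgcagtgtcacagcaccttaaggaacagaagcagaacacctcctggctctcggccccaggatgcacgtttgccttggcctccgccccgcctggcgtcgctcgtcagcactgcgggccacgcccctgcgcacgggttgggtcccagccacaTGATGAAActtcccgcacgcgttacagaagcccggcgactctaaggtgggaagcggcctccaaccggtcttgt
Slc7a11 (chr3:50443564-50443863, minus strand): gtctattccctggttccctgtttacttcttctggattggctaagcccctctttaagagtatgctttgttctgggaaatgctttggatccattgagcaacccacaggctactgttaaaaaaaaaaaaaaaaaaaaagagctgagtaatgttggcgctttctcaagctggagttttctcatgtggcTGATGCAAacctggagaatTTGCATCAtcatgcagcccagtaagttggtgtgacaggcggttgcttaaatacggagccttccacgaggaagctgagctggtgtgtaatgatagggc

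Counted from 0 at the annotated start, the match begins at position -193 in Chac1, 14 in Trib3 and -23 in Asns, and the Slc7a11 window holds a pair at -66 and -47. A window of Vldlr has a match at -200. All 10 members had at least 1 window in the table, 13 windows in all, and 5 of these held the core, against 3.97% of all 32851 windows of this length. The cAMP response element TGACGTCA was found in the Ppp1r15a window and in 1.79% of all windows. The GAS element TTCNNNGAA, the palindrome that STAT proteins bind, was found in the Slc7a11 window and in 8.3% of all windows. These matches describe letters only and do not show binding.

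The values are log2 expression levels of robust multi-array average (RMA) data, and differences between groups are given on the log2 scale with limma's standard error (SE). A gene was called where limma's adjusted p (Benjamini-Hochberg over all genes) was below 0.05. Replicate arrays correlated at 0.997 to 0.998. The first quartile of all gene values was 6.1, and values below it are called dim here. The transcripts of both deleted genes were lower in the null cells (limma adjusted p = 3.99e-06 for Stat5a and 3.33e-05 for Stat5b without GH). Stat5a averaged 5.66 ± 0.10 in null cells and 7.49 ± 0.48 in control cells without GH (SD, n = 2 each), a null level below the first quartile. Stat5b averaged 7.32 ± 0.02 in null cells and 8.01 ± 0.07 in control cells without GH (SD, n = 2 each). The probes may lie outside the deleted exons, which the sources used here do not name.

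All 15 fibroblast markers examined were above the first quartile on every array, with a mean level of 13.01 to 13.16 on null arrays and 12.49 to 12.59 on control arrays. Single markers of that list differed widely and in both directions between null and control cells: without GH, 4 were higher, Lum by 4.32, Pdgfra by 3.80, Dcn by 3.57 and Col3a1 by 0.32, and 4 were lower, Twist2 at -1.39, Fn1 at -0.97, Fap at -0.85 and Col5a1 at -0.36. With GH, 5 were higher and 3 lower. Markers of macrophages and leukocytes differed with the genotype. With and without GH all 15 were lower in null cells, and their mean level was 6.70 to 6.79 in KO+GH, 6.71 to 6.77 in KO-, 10.32 to 10.38 in WT+GH and 10.11 to 10.24 in WT-. Their summed linear signal was 2988 to 3191 in KO+GH, 2631 to 2879 in KO-, 36698 to 38919 in WT+GH and 34336 to 37733 in WT-. Between 4 and 8 of the 15 lay below the first quartile on each null array and none on the control arrays. The leukocyte gene Ptprc averaged 4.26 in KO- and 9.20 in WT-, and Lyz2 averaged 8.58 in KO- and 13.90 in WT-. With GH, Cd14 and Coro1a rose in null cells and Cd14 alone in control cells. The part of the cells behind either list of markers in any difference reported here, between the genotypes or with GH, was not tested. In such bulk samples fewer cells of a type and less RNA per cell cannot be told apart.

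Chac1, whose enzyme degrades glutathione by splitting off its gamma-glutamyl group, was highest in control cells without GH. Its level was 8.39 and 8.61 in KO+GH, 8.73 and 8.67 in KO-, 9.65 and 9.74 in WT+GH, and 11.05 and 11.06 in WT-. The arrays of control cells with GH thus lay between the control arrays without GH and all 4 null arrays, and the null arrays with and without GH were close together. GH in control cells went with a level 2.56-fold lower (log2 difference -1.36 ± 0.10), the fifth lowest difference among 18193 genes, which is the value that chose the gene (rank 5 from the lowest). The null cells stood 5.11-fold below control cells without GH (-2.35 ± 0.10) and 2.29-fold below them with GH (-1.20 ± 0.10). Both genotype differences use the control arrays that chose the gene, so they are given without a test. The comparison independent of that choice is GH in null cells. There Chac1 differed by -0.20 ± 0.10 and did not pass the test (limma adjusted p = 0.207), with a 95% interval from -0.41 to 0.01. The GH difference in null cells minus that in control cells was 1.15 ± 0.14, again a description. Chac1 had no second probe set to compare with, and neither had Atf5 or Ppp1r15a.

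**Figure D1:**
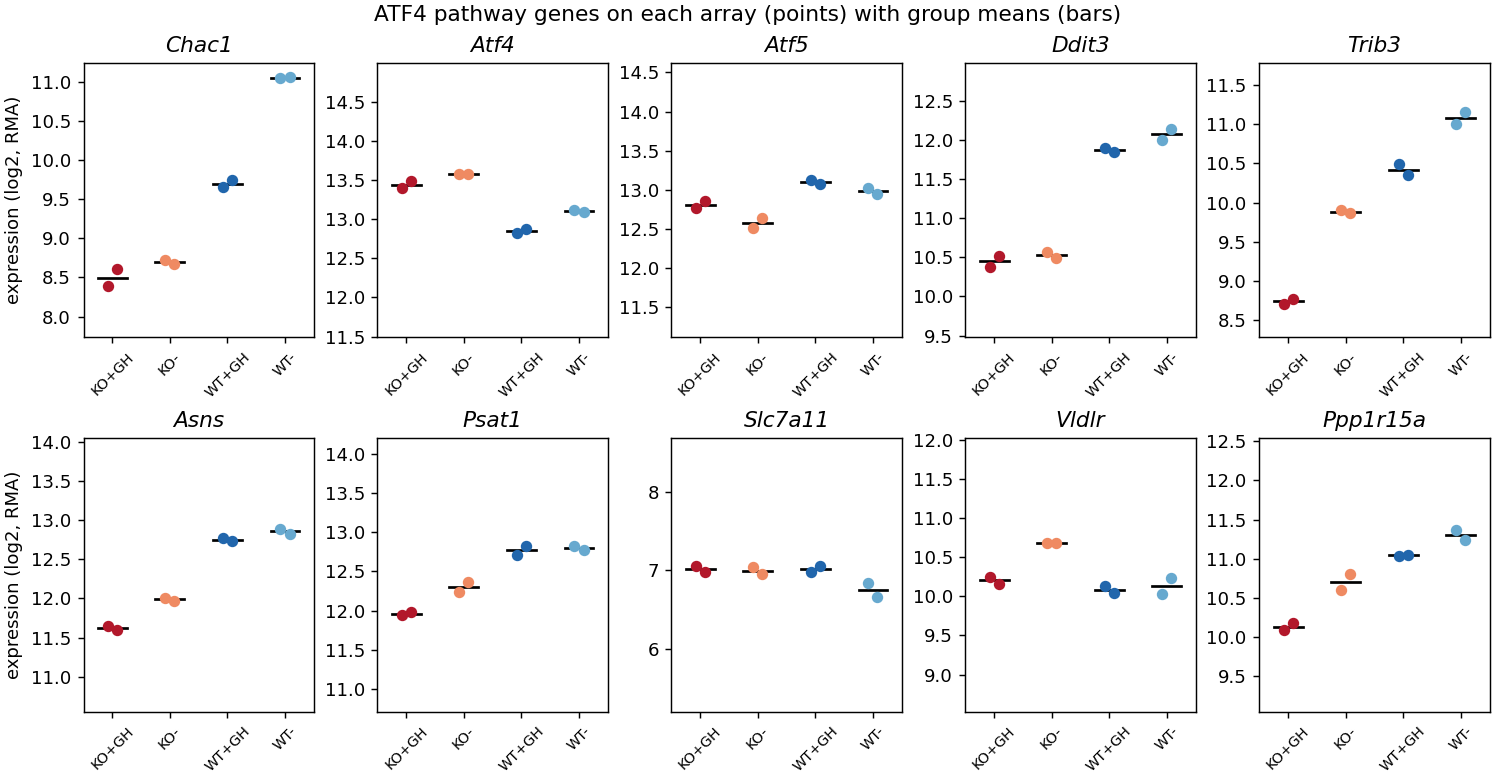
Expression of each of the 10 genes on the 8 arrays, in log2 RMA units; points are arrays, bars are group means of 2 arrays, and every panel spans the same 3.5 log2 units around the gene's own mean. Chac1 steps down in control cells with GH (9.65 and 9.74, against 11.05 and 11.06 without) and stays between 8.39 and 8.73 on the null arrays.

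The transcription factors of the branch did not share 1 direction. Atf4, its central activator, was higher in null cells, whereas Ddit3 and Atf5 were lower. Atf4 stood at 13.39 and 13.48 in KO+GH, 13.58 and 13.58 in KO-, 12.82 and 12.87 in WT+GH, and 13.12 and 13.09 in WT-. All null arrays lay above all control arrays. Such separation was common. Over all genes, the null arrays lay wholly above the control arrays for 37% and wholly below for 31.8% without GH. With GH these shares were 33.9% and 38.2%. The Atf4 difference between the genotypes was 0.47 ± 0.09 without GH (limma adjusted p = 0.000505) and 0.59 ± 0.09 with GH (limma adjusted p = 9.26e-05). A second Atf4 probe set went the same way without passing (0.37 and 0.28, adjusted p = 0.114 and 0.233 over all probe sets), and the remaining one lay below the first quartile in every group. With GH, Atf4 in null cells differed by -0.14 ± 0.09, which did not pass (limma adjusted p = 0.33).

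Ddit3 encodes CHOP, a C/EBP family factor that ATF4 induces and that favours cell death under lasting stress. It stood at 10.38 and 10.52 in KO+GH, 10.57 and 10.49 in KO-, 11.89 and 11.84 in WT+GH, and 12.00 and 12.14 in WT-. The 2 genotypes were far apart and the 2 GH states of each were close. Without GH, Ddit3 in null cells lay 2.92-fold below control cells (-1.55 ± 0.09, limma adjusted p = 4.32e-08), and with GH 2.68-fold below them (-1.42 ± 0.09, limma adjusted p = 9.46e-08). Its second probe set differed by -1.89 and -1.39 in the same comparisons. The GH difference of Ddit3 in null cells was -0.08 ± 0.09 (limma adjusted p = 0.644), with a 95% interval from -0.28 to 0.13.

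Atf5, a close relative of ATF4 whose translation is also raised when eIF2 is phosphorylated, stood at 12.77 and 12.86 in KO+GH, 12.52 and 12.64 in KO-, 13.13 and 13.07 in WT+GH, and 13.02 and 12.95 in WT-. Every null array lay below every control array. The difference was -0.41 ± 0.09 without GH (limma adjusted p = 0.0021) and -0.29 ± 0.09 with GH (limma adjusted p = 0.019). The call with GH was lost without replicate 2 of KO+GH (limma adjusted p = 0.114), without replicate 2 of WT+GH (0.122) and without replicate 3 of WT+GH (0.0564). Within null cells GH gave Atf5 0.24 ± 0.09 and did not pass (limma adjusted p = 0.117), although robust moderation of the variances with a trend brought it past the threshold (0.0351).

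The feedback genes of the branch were lower in null cells and fell further when those cells were given GH. Trib3, a pseudokinase that binds ATF4 and CHOP and restrains them, stood at 8.71 and 8.77 in KO+GH, 9.90 and 9.87 in KO-, 10.49 and 10.35 in WT+GH, and 11.00 and 11.15 in WT-. The 4 groups were fully separate. Over all genes, the KO+GH arrays lay wholly above the KO- arrays for 17.1% and wholly below for 38%. In null cells GH lowered Trib3 2.21-fold (-1.15 ± 0.09, limma adjusted p = 8.62e-06). In control cells the same step was -0.65 ± 0.09, a description. Null cells were 2.28-fold below control cells without GH (-1.19 ± 0.09, limma adjusted p = 4.77e-07) and 3.21-fold below them with GH (-1.68 ± 0.09, limma adjusted p = 2.23e-08). The probe set used for Trib3 is of a type that can share sequence with other transcripts. The one used for Vldlr and the second ones of Asns and Atf4 are of this type too. The other Trib3 probe set gave -1.12 for GH in null cells and -1.11 and -1.57 between the genotypes.

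Ppp1r15a, the stress-induced subunit that directs protein phosphatase 1 to eIF2, stood at 10.09 and 10.18 in KO+GH, 10.60 and 10.80 in KO-, 11.04 and 11.05 in WT+GH, and 11.37 and 11.24 in WT-. Its groups were again separate and in the same order as those of Trib3. The hormone lowered it in null cells (log2 difference -0.57 ± 0.10, limma adjusted p = 0.0029). The genotypes differed by -0.60 ± 0.10 without GH (limma adjusted p = 0.000221) and -0.91 ± 0.10 with GH (limma adjusted p = 7.29e-06). In control cells the GH difference was -0.26 ± 0.10, given as a description.

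The biosynthetic targets followed the genotype. Asns, which makes asparagine, stood at 11.64 and 11.59 in KO+GH, 12.01 and 11.97 in KO-, 12.77 and 12.73 in WT+GH, and 12.89 and 12.82 in WT-. Asns was 1.82-fold lower in null cells without GH (-0.87 ± 0.09, limma adjusted p = 3.14e-06) and 2.18-fold lower with GH (-1.13 ± 0.09, limma adjusted p = 3.3e-07). It was lower with GH in null cells (-0.37 ± 0.09, limma adjusted p = 0.0159). The second Asns probe set gave -1.14, -1.55 and -0.46 in these 3 comparisons.

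Psat1, the aminotransferase of serine synthesis, stood at 11.94 and 11.98 in KO+GH, 12.24 and 12.36 in KO-, 12.71 and 12.83 in WT+GH, and 12.83 and 12.77 in WT-. The 2 control groups overlapped, while every null array was lower. Psat1 differed by -0.50 ± 0.09 without GH (limma adjusted p = 0.000521) and by -0.81 ± 0.09 with GH (limma adjusted p = 1.05e-05). Psat1 was also lower with GH in null cells (-0.34 ± 0.09, limma adjusted p = 0.0319), a call lost with each array centred on its median (limma adjusted p = 0.063). In control cells the GH differences were -0.11 ± 0.09 for Asns and -0.03 ± 0.09 for Psat1.

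The transport and receptor genes behaved otherwise. Slc7a11, the cystine importer that feeds glutathione synthesis, stood at 7.05 and 6.98 in KO+GH, 7.04 and 6.95 in KO-, 6.98 and 7.05 in WT+GH, and 6.84 and 6.65 in WT-. It lay less than 1 log2 unit above the first quartile. Slc7a11 differed by 0.25 ± 0.09 between the genotypes without GH, just short of the threshold (limma adjusted p = 0.0506), and by 0.00 ± 0.09 with GH (limma adjusted p = 0.994). Under 4 alternatives the difference without GH passed, with adjusted p from 0.0243 to 0.0412. Its 95% interval for GH in null cells ran from -0.18 to 0.23. With its probe sets averaged, Slc7a11 passed there (0.35, limma adjusted p = 0.0442), and the other probe set was dim in every group.

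Vldlr, the very low density lipoprotein receptor, which ATF4 and PERK signalling have been shown to raise, stood at 10.25 and 10.16 in KO+GH, 10.68 and 10.68 in KO-, 10.13 and 10.04 in WT+GH, and 10.03 and 10.23 in WT-. The null arrays without GH were higher than all others. Without GH, Vldlr was 1.46-fold higher in null than in control cells (0.55 ± 0.10, limma adjusted p = 0.000412), and GH in null cells lowered it 1.39-fold (-0.48 ± 0.10, limma adjusted p = 0.00771). With GH the genotypes differed by 0.12 ± 0.10, which did not pass (limma adjusted p = 0.348). Of its 6 probe sets, all were higher in null cells without GH, from 0.06 to 0.68, and all were lower with GH in null cells, from -0.08 to -0.48. With GH, the probe sets of Vldlr disagreed between the genotypes, with one at 0.28 and another at -0.35, both past the threshold over all probe sets.

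**Figure D2:**
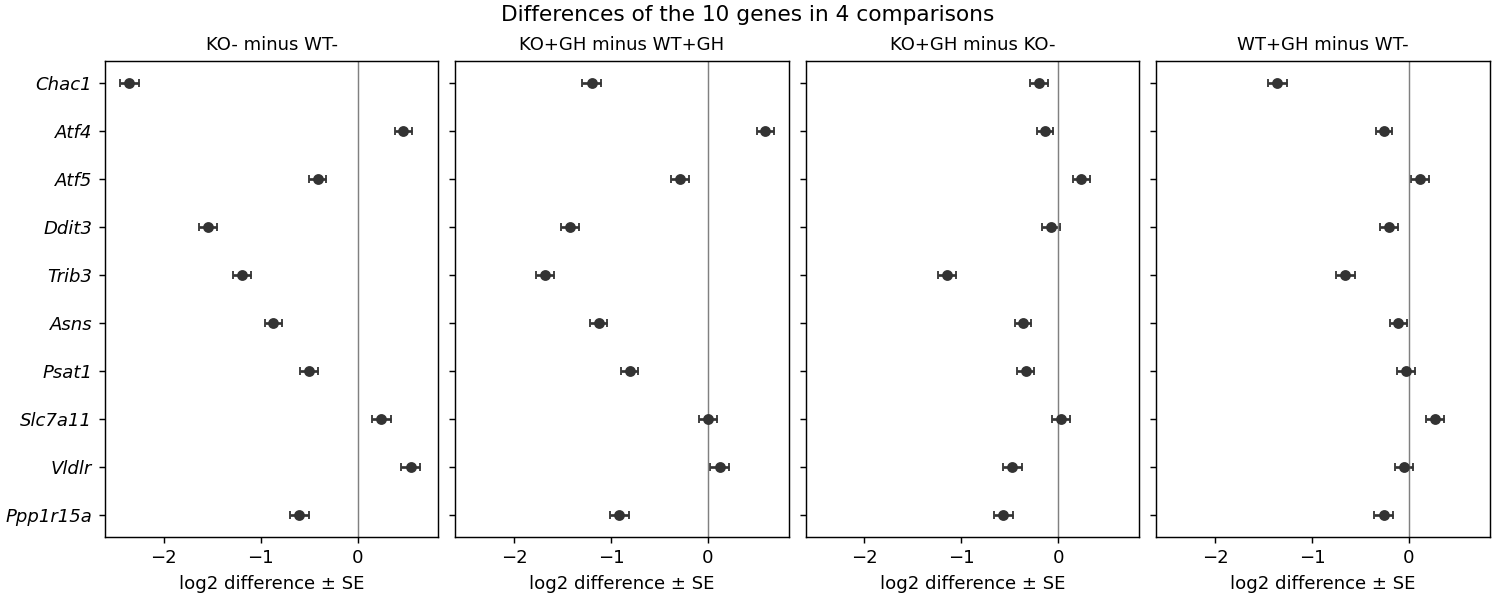
Log2 differences of the 10 genes with limma's SE in 4 comparisons, each panel titled as the first group minus the second, n = 2 arrays per group. Chac1, Atf5, Ddit3, Trib3, Asns, Psat1 and Ppp1r15a lie left of 0 in both genotype panels. Atf4 and Vldlr lie right of it in both. Slc7a11 lies right of 0 without GH and almost on 0 with GH.

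Of the 9 members other than Chac1, 6 were lower and 2 higher in null cells without GH, and Slc7a11 was not called. Over all 18193 genes 22.7% were called lower and 24.8% higher. With GH, 6 were lower and 1, Atf4, was higher, where 23.1% of all genes were lower and 22.2% higher. The median difference over these 9 members was -0.50 without GH and -0.81 with GH, where the median over all genes was 0.03 and -0.02. Given to null cells, GH lowered 5 of the 10 members, Trib3, Ppp1r15a, Vldlr, Asns and Psat1, and limma called 0 higher (1, Atf5, at an unadjusted p below 0.05), where 6.35% of all genes were called lower and 5.36% higher. The median was -0.27 for the members and -0.07 for all genes. The split over all genes depended on the scaling, with 975 genes higher and 1155 lower as deposited and 1144 and 726 with each array centred on its median. Without 1 of the 4 null arrays, 2 or 3 of these 5 stayed called. Trib3 and Ppp1r15a passed under every alternative tried (adjusted p up to 0.0009 and 0.0463). Asns and Psat1 lost their calls without any 1 of the 4 null arrays, and Vldlr without replicate 2 of KO- or replicate 3 of KO+GH.

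In control cells the contrast that chose Chac1 is given for the members as a description. The WT+GH arrays lay wholly below the WT- arrays for 6 of the 10 genes, Chac1 among them, and wholly above for 2. Over all genes 22.1% lay below and 16.5% above. The log2 differences were -0.26 ± 0.09 for Atf4, -0.20 ± 0.09 for Ddit3, 0.11 ± 0.09 for Atf5, 0.27 ± 0.09 for Slc7a11 and -0.05 ± 0.10 for Vldlr. Nothing is read from these counts, since the contrast chose Chac1 and the other members were chosen with earlier results known. The comparisons of GH in control cells and of the genotypes share the control arrays.

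**Figure D3:**
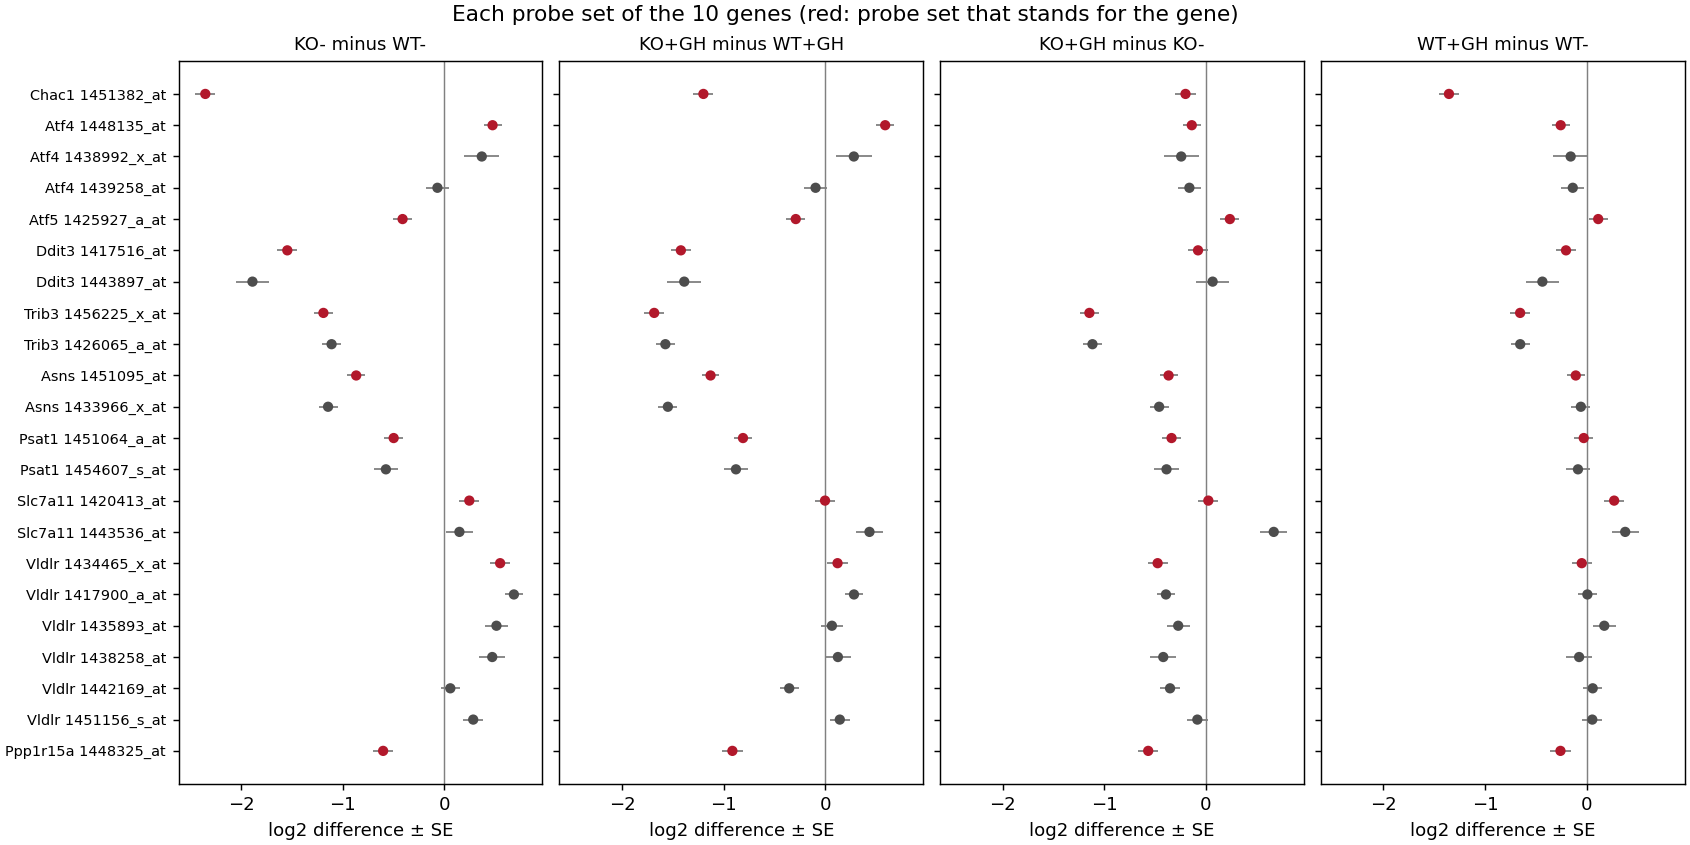
Log2 differences with SE for each of the 22 probe sets of the 10 genes, in the same 4 comparisons; the red point is the probe set with the highest mean, which stands for the gene. The pairs of probe sets of Trib3, Asns, Psat1 and Ddit3 lie on the same side of 0 in both genotype panels. In the KO+GH minus WT+GH panel those of Atf4 and Vldlr (0.28 and -0.35 at the extremes) spread across 0. The red Slc7a11 point lies almost on 0 there.

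Genes outside the 10 whose pattern was most like that of Chac1 over the 8 arrays were Dusp5, Ccn2, Apobec1, Tmcc3 and Adm. Pearson's r was 0.993 for Dusp5, 0.988 for Ccn2, 0.983 for Apobec1, 0.980 for Tmcc3 and 0.979 for Adm, among 2343 genes whose group means spanned at least 1 log2 unit and whose highest group mean exceeded the median of all values. The 8 arrays fall into 4 groups, so r mostly reflects 4 group means and is given without a test. Ccn2, which encodes a matricellular protein, stood at 12.04 and 12.15 in KO+GH, 12.17 and 12.23 in KO-, 13.40 and 13.45 in WT+GH, and 14.25 and 14.37 in WT-. Dusp5, a nuclear phosphatase of ERK, stood at 9.26 and 9.42 in KO+GH, 9.43 and 9.49 in KO-, 9.85 and 9.93 in WT+GH, and 10.36 and 10.52 in WT-. Both held the same order of groups as Chac1, for whose pattern they were picked.

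The wider pathway was followed in 8 lists of 130 other genes, of which 124 were measured. Without GH, 55 of these were lower in null cells (44.4%) and 28 higher (22.6%), against 22.7% and 24.8% of all genes. With GH, 53 were lower (42.7%) and 26 higher (21%), against 23.1% and 22.2%. The median difference was -0.19 without GH and -0.14 with GH. Null cells given GH had 8 lower and 14 higher (6.45% and 11.3%, against 6.35% and 5.36% of all genes). That total of 22 was 10 without replicate 2 of KO+GH and 11 without replicate 3 of KO+GH or replicate 2 of KO-. GH in control cells lowered 2 and raised 3 (1.61% and 2.42%, against 0.896% and 1.72%). The GH response differed between the genotypes for 12 of the 124 by limma's interaction test, 8 with a higher and 4 with a lower difference in null cells (6.45% and 3.23%, against 2.83% and 2.33% of all genes). These shares of all genes are the background for each list described next. Like those given for the 10 members, they include genes that were dim in every group. With such genes left out, 4030 of 14202 genes were lower in null cells and 4372 higher without GH (59.2% called, against 47.5% of all genes). With GH, 4087 were lower and 4034 higher (57.2% called, against 45.3%). For GH in null cells 17.1% were called, against 11.7%.

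Among 16 cytosolic aminoacyl-tRNA synthetases, the enzymes that charge tRNAs and that ATF4 activates in many cell types, 9 were lower and 2 higher in null cells without GH (median -0.41). Among the lower ones were Cars (-1.08 ± 0.10, limma adjusted p = 1.87e-06) and Yars (-0.90 ± 0.09, limma adjusted p = 4.99e-06), and the higher ones were Kars (1.09 ± 0.09, limma adjusted p = 5.22e-07) and Qars (0.38 ± 0.10, limma adjusted p = 0.00517). The Qars call was lost without replicate 3 of KO- (limma adjusted p = 0.0503) or replicate 3 of WT- (0.0508). With GH, 10 were lower and 1, Kars, was higher (median -0.49). Limma called 0 synthetases for GH in either genotype (5 in null and 0 in control cells at an unadjusted p below 0.05), where the list median was -0.06 in null cells and -0.02 in control cells.

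Enzymes of serine, glycine and one-carbon metabolism were mostly lower in null cells, 8 of 15 lower and 3 higher without GH (median -0.41), and 9 lower and 1 higher with GH (median -0.47). Cth, which makes cysteine from cystathionine, was lower, at -1.13 ± 0.09 without GH (limma adjusted p = 5.08e-07) and at -1.50 ± 0.09 with GH (limma adjusted p = 4.4e-08). Bcat1, a branched-chain aminotransferase, was lower, at -0.99 ± 0.09 and -1.32 ± 0.09. Gpt2, which makes alanine, was higher in null cells by 1.39 ± 0.09 and 0.92 ± 0.09. With GH in null cells, 4 of the 15 fell and 1 rose. Cth had 8.82 and 8.86 in KO+GH, against 9.60 and 9.49 in KO- (-0.70 ± 0.09, limma adjusted p = 0.000418). Pck2, the mitochondrial PEP carboxykinase, was lowered, at -0.55 ± 0.09 (limma adjusted p = 0.0024) and Shmt1 raised by 0.34 ± 0.10 (limma adjusted p = 0.0388). The Shmt1 call was lost with the replicate block (limma adjusted p = 0.0532) and without any 1 of the 4 null arrays (0.0988 to 0.164). In control cells 0 of the 15 were called with limma, and 2 had an unadjusted p below 0.05.

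Amino acid transporters went both ways between the genotypes, 4 lower and 3 higher of 11 in each GH state. Slc38a1 was lower in null cells, at -2.26 ± 0.10 without GH and at -2.51 ± 0.10 with GH, whereas the glutamine transporter Slc1a5 was higher by 2.18 ± 0.11 and 2.22 ± 0.11. Slc7a1, the arginine and lysine transporter CAT-1, moved oppositely with GH. It stood at 11.05 and 11.04 in KO+GH, against 10.55 and 10.57 in KO- (0.49 ± 0.08, limma adjusted p = 0.00314), and at 10.99 and 11.07 in WT+GH, against 11.48 and 11.43 in WT- (-0.43 ± 0.08, limma adjusted p = 0.0162). The second of these calls was lost when only the control arrays were fitted (limma adjusted p = 0.0731) and when its probe sets were averaged (-0.19, limma adjusted p = 0.318). It was also lost without either WT+GH array (limma adjusted p = 0.204 without replicate 2 and 0.0718 without replicate 3) or replicate 2 of WT- (0.0908).

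Of 11 ATF4 partners and related factors, all bZIP proteins apart from Nupr1, 5 rose with GH in null cells. Limma called 0 lower (1 at an unadjusted p below 0.05). Over all genes 5.36% were called higher and 6.35% lower (1144 and 726 of 18193 with each array centred on its median). Maff stood at 11.11 and 11.33 in KO+GH, against 9.71 and 9.81 in KO- (1.46 ± 0.10, limma adjusted p = 1.72e-06). Cebpb, an inducible partner of ATF4, rose in null cells by 0.79 ± 0.09 (limma adjusted p = 0.000137) and in control cells by 0.84 ± 0.09 (limma adjusted p = 0.000105). Atf3, an ATF4 target that represses many of the same promoters, fell with GH in control cells, at -0.79 ± 0.09 (limma adjusted p = 0.000162) and was the 1 member of its list called lower there. It stood at 8.98 and 8.90 in WT+GH, against 9.70 and 9.77 in WT-. Between the genotypes without GH, 5 of the 11 were lower and 2 higher, with Nupr1 at -1.39 ± 0.11 and Atf6 at -0.91 ± 0.10 lower, and Creb3l2 at 0.46 ± 0.09 and Cebpb at 0.29 ± 0.09 higher. The Cebpb call between the genotypes was lost without replicate 3 of KO- (limma adjusted p = 0.0796) or replicate 2 of WT- (0.0961). With GH, 3 were lower and 6 higher.

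The list around eIF2 held eIF2 alpha kinases, phosphatase subunits, eIF2B subunits, Eif2a and related genes such as Impact, Oma1, Nck1, Dele1 and Eif4ebp1. Its eIF2 subunit gene, Eif2s1, had no probe set of its own. Of the 18 measured, 6 were lower and 5 higher in null cells without GH (33.3% and 27.8%, against 22.7% and 24.8% of all genes, median -0.03). With GH, 5 were lower and 4 higher (27.8% and 22.2%, against 23.1% and 22.2%). Eif2b3, a subunit of the eIF2B exchange factor, was lower, at -1.50 ± 0.09 and -1.44 ± 0.09 in the 2 GH states. Oma1, a mitochondrial protease that relays mitochondrial stress to this pathway, was lower, at -1.10 ± 0.09 and -1.15 ± 0.09. Eif2a, which encodes the separate factor eIF2A, was higher by 0.97 ± 0.09 and 0.58 ± 0.09. Eif2a was the 1 gene of the 18 that fell with GH in null cells (-0.36 ± 0.09, limma adjusted p = 0.0185). That call was lost with its probe sets averaged (-0.21, limma adjusted p = 0.26) and without any 1 of the 4 null arrays (limma adjusted p from 0.0543 to 0.134). Limma called 0 of the 18 for GH in control cells (1 at an unadjusted p below 0.05).

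Other reported targets of ATF4 or CHOP split evenly between the genotypes without GH, 6 lower and 6 higher of 18. The lower ones included Bbc3 (-2.37 ± 0.10), which encodes the cell death protein PUMA, and Ddit4 (-2.03 ± 0.09), an inhibitor of mTORC1. With GH, 6 were lower and 4 higher, among the lower ones Ddit4 (-2.71 ± 0.09) and Sesn2 (-2.06 ± 0.09), a leucine sensor of the mTORC1 pathway. Bbc3, Ddit4 and Sesn2 are also known targets of p53. Ndrg1 was higher by 2.14 ± 0.09 without GH and 1.83 ± 0.09 with GH, and Bcl2l11, the BH3 gene for BIM, by 1.39 ± 0.12 without GH. With GH, null cells had 4 of the 18 higher and 1 lower, Ddit4 (-0.63 ± 0.09, limma adjusted p = 0.000705). GH in control cells raised Bcl2l11 (1.48 ± 0.12, limma adjusted p = 1.22e-05) and Ndrg1 (0.76 ± 0.09, limma adjusted p = 0.000431).

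ER chaperones and genes of the other unfolded protein response branches were lower for 10 and higher for 3 of 20 in null cells without GH (median -0.23), and for 10 and 4 with GH. Sdf2l1 was lower, at -1.18 ± 0.10 and -1.14 ± 0.10, and Ern1, which encodes the ER stress sensor IRE1, was higher by 1.37 ± 0.11 and 1.46 ± 0.11. Null cells given GH had higher Syvn1 (0.33 ± 0.09) and lower Pdia4 (-0.38 ± 0.09). Syvn1 lost its call without any 1 of the 4 null arrays or either WT+GH array (limma adjusted p from 0.0504 to 0.219) and with the replicate block (0.0539). Pdia4 lost it with probe sets averaged (-0.19, limma adjusted p = 0.149) and without replicate 2 or 3 of KO+GH or replicate 3 of KO- (0.0926 to 0.122). In control cells limma called 0 of the 20, also at an unadjusted p below 0.05.

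Glutathione and NRF2 target genes, the pathway on which CHAC1 acts, had 7 of 15 lower and 4 higher in null cells without GH (median -0.20), and 6 and 3 with GH. Gss, the last enzyme of glutathione synthesis, was lower, at -1.52 ± 0.10 and -1.66 ± 0.10, and the quinone reductase Nqo1 at -1.15 ± 0.09 and -1.83 ± 0.09. Chac2, the paralog of Chac1, did not pass in any comparison (-0.20 ± 0.11 between the genotypes without GH, limma adjusted p = 0.168). In null cells GH raised Ggct, another gamma-glutamylcyclotransferase, with 8.18 and 8.37 in KO+GH against 7.24 and 7.19 in KO- (1.06 ± 0.10, limma adjusted p = 3.26e-05). It also raised Gclc, the catalytic subunit of glutamate-cysteine ligase (0.75 ± 0.11, limma adjusted p = 0.000877), and lowered Nqo1 (-0.39 ± 0.09, limma adjusted p = 0.0147), a call lost without any 1 of the 4 null arrays (0.0647 to 0.0846). In control cells 0 of the 15 were called with limma, and 2 had an unadjusted p below 0.05.

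**Figure D4:**
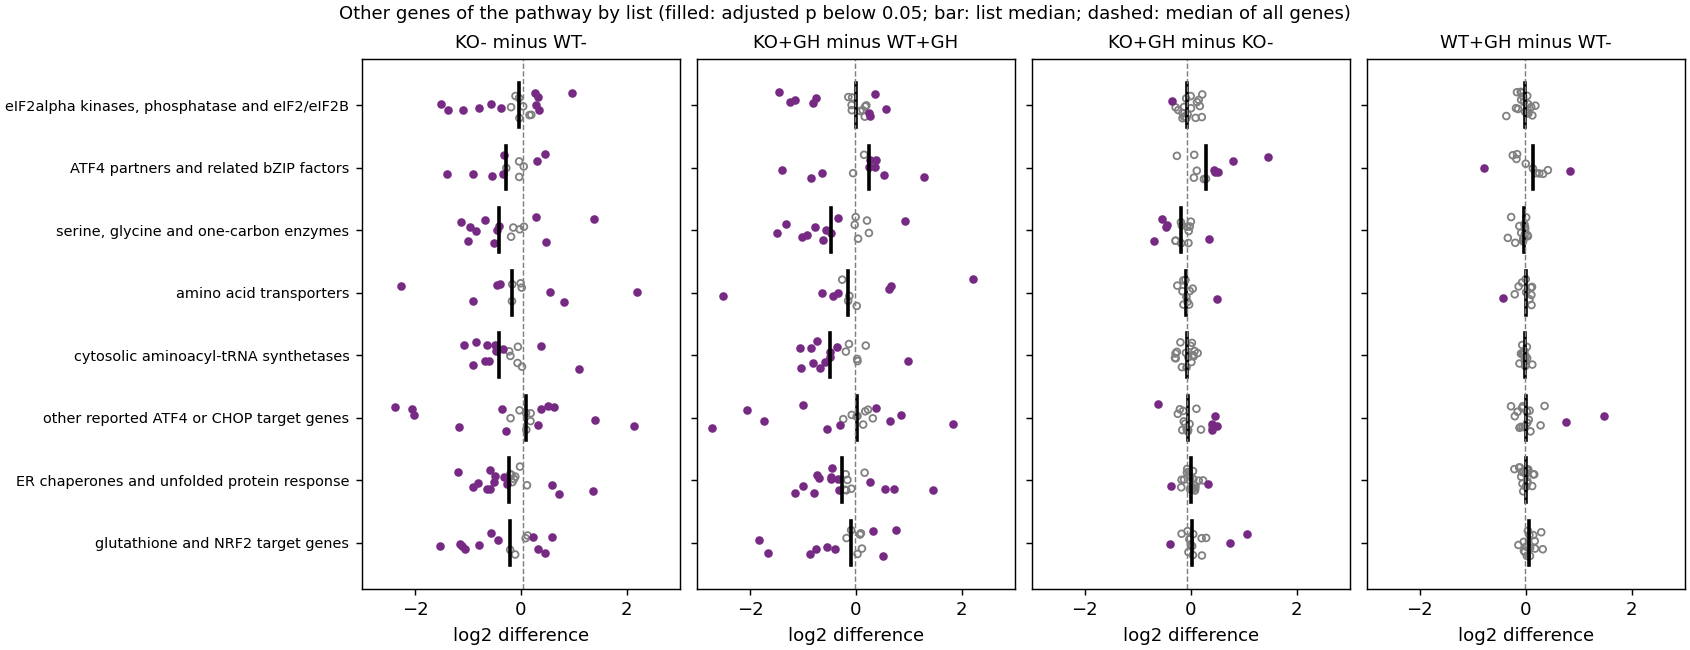
Log2 differences of the 124 measured genes in the 8 lists, 1 point per gene, filled where limma's adjusted p was below 0.05; the bar is the list median and the dashed line the median of all genes. The synthetases (medians -0.41 and -0.49) and the serine and one-carbon enzymes (medians -0.41 and -0.47) lie mostly left of the line in the 2 genotype panels, and few points are filled in the panel of GH in control cells.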

How the data were processed

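Deposited by the authors on the log2 scale, the values come, per the submitters' processing notes, from Partek 6.10.0511 with RMA, which corrects background, equalises array distributions and summarises probes, with settings not given in the sources used here. Of 45037 probe sets left after 64 controls, the platform annotation gave 1 gene for 34945. Symbols were updated through Entrez identifiers with the GRCm38.p6 gene table (34741 matched), and the brightest probe set stood for a gene, which left 18193 genes. Groups and replicate numbers came from the titles. For 1 KO- array the source label gives number 3 and the title 2, and the title was used.

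A single limma 3.58.1 model (R 4.3.3) held the 8 arrays and a mean for each group, with 4 residual and 7.82 prior degrees of freedom and a median residual SD of 0.097. The number of arrays limits the precision. The fit was also run on simulated data with independent noise. Such data lack the wide genotype differences seen here, and nothing is concluded from that run. The interaction is the GH difference in null cells minus that in control cells. The members and lists were chosen with earlier results of these data known. From each list, up to 2 called genes per direction and comparison with the lowest p were eligible to be named, plus the 5 genes most like Chac1, while Cd14, Coro1a, Ptprc, Lyz2, Chac2 and others named for a count or role were chosen after their values were seen. Alternatives covered the replicate block, probe set rule, dim genes, centring, quantile normalisation, fits on the compared groups, the variance prior and each array left out. The 6 listed genes with no probe set of their own are not analysed here.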

Additional observations from a re-analysis of the deposited data

Results flagged for a closer look

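The GH response of 10 named pathway genes differed between the genotypes by the interaction test of limma, given as the GH difference in null cells minus that in control cells. Over all 18193 genes this test called 2.83% higher and 2.33% lower, 515 and 423 genes, or 697 and 311 with each array centred on its median. Among the 124 pathway genes it called 8 higher and 4 lower.

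Maff differed by 1.325 ± 0.14 (limma adjusted p = 0.000189), with 1.46 in null and 0.14 in control cells. Atf3 differed by 1.082 ± 0.12 (limma adjusted p = 0.000322), with 0.29 in null cells, which did not pass alone, and -0.79 in control cells. Slc7a1 differed by 0.9155 ± 0.12 (limma adjusted p = 0.000845) and moved in opposite directions, 0.49 in null and -0.43 in control cells. Ggct differed by 0.8829 ± 0.14 (limma adjusted p = 0.0036), a call lost when its probe sets were averaged (0.41, limma adjusted p = 0.0634).

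Bcl2l11 differed by -1.069 ± 0.18 (limma adjusted p = 0.00407), with 0.41 in null and 1.48 in control cells. Ddit4 differed by -0.6863 ± 0.12 (limma adjusted p = 0.00692), with -0.63 in null and 0.06 in control cells. Nqo1 differed by -0.6791 ± 0.12 (limma adjusted p = 0.00785), with -0.39 in null and 0.29 in control cells. Bbc3 differed by 0.6443 ± 0.15 (limma adjusted p = 0.0242), lost without any 1 of 6 arrays (limma adjusted p from 0.0663 to 0.109). Pck2 at -0.4993 ± 0.13 (limma adjusted p = 0.0473) and Ppp1r15b, the constitutive counterpart of Ppp1r15a, at 0.5746 ± 0.15 (limma adjusted p = 0.0499) were both lost with the replicate block (0.0713 and 0.0734), and without any 1 of 8 and of 7 arrays. With 2 arrays per group, no array could be tested as an outlier.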

How the results depend on the processing

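The Chac1 differences kept their sign under every alternative. Centring each array on its median turned which direction had more calls over all genes, to 4186 higher and 4361 lower between the genotypes without GH (4510 and 4130 as deposited), 4440 and 3843 with GH (4042 and 4205), and 1144 and 726 for GH in null cells (975 and 1155). The Chac1 difference between null and control cells without GH was -2.38 with each array centred on its median and -2.38 after quantile normalisation, against -2.35 as deposited. Leaving out 1 array at a time gave 1.04 to 1.26 for the difference of its GH responses, 2 to 5 members and 10 to 23 pathway genes called for GH in null cells. With a variance trend and robust moderation, 34 pathway genes were called for GH in null cells (22 otherwise) and 9 for GH in control cells (5 otherwise). The replicate block called 8, 7 and 5 members (null against control without GH, with GH, and GH in null cells), the same as without it, and 80, 77, 21, 5 and 10 pathway genes in the 5 comparisons. Replicate differences of same-numbered arrays correlated at 0.13 and 0.05 between the genotypes within a GH state and at -0.28 to -0.08 across GH states, so not every pair was above 0.1 and the numbers were not treated as pairs. An alternative added after seeing the data, the block with the numbers of the groups without GH crossed, called 9, 7 and 5 members. Over all genes, GH in null cells gave 818 to 1344 calls without 1 null array (2130 with all), the interaction 437 to 586 without 1 array of KO+GH or WT+GH or replicate 2 of KO- (938 with all), and GH in control cells 295 and 316 without replicate 2 or 3 of WT+GH and 316 with the control arrays alone (476 with all). The fit on compared groups alone could not be made for the interaction. Without detection calls, the arrays limit what can be said of genes near or below the first quartile of signal.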
